A study of Homo sapiens with 18 samples.

Results

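The data described here are 6 of the 18 RNA sequencing libraries of a THP-1 experiment, the 3 unstimulated libraries of cells that received a scrambled, non-targeting siRNA (SCR) and the 3 unstimulated libraries of cells that received no siRNA (WT). They were chosen by their sample labels, and every gene with enough counts to be tested was kept, which was 16678 of the 63677 genes in the table. THP-1 cells come from a human acute monocytic leukaemia, grow in suspension and are used as a model of monocytes. In the study, SCR and WT served as controls for an siRNA against TRAFD1 (KD). All 3 conditions were also sampled after lipopolysaccharide (LPS), a bacterial cell wall component, given at 10 ng/ml for 4 h.

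SCR cells received the scrambled siRNA at 25 nM with Lipofectamine RNAiMAX, were kept for 72 h and then received medium alone for 4 h. WT cells went through the same 72 h and 4 h without siRNA. The descriptions of WT differ: the treatment protocol gives them the transfection mix without siRNA, while the sample characteristics and the series text call them untreated and a figure legend of the study calls them untransfected. If WT cells received the reagent, SCR and WT differ in the siRNA. If they did not, the siRNA and the reagent cannot be told apart. The labels give triplicates and do not say whether these were separate cultures. The p-values measure the spread between samples within groups, estimated over all 18 libraries, and this spread may be technical. The sequence of the scrambled siRNA was not disclosed by its maker, and no sequence of it is given here.

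A non-targeting siRNA is meant to load the RNA interference machinery without matching a transcript. Double-stranded RNA and cationic lipids are both known to be able to engage innate sensors in myeloid cells. Toll-like receptors in endosomes and cytosolic RNA sensors signal through NF-kB, a family of dimeric transcription factors held in the cytoplasm by the inhibitor encoded by NFKBIA, and through interferon regulatory factors, which induce type I interferon and the genes that respond to it. NF-kB targets include cytokines, chemokines, adhesion molecules and NF-kB's own subunits and inhibitors, so that a rise in its activity is followed by a rise in its own feedback genes.

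The 6 libraries held 10626885 to 22344279 counts, and the ranges of the groups overlapped. Levels are given as CPM, counts per 1000000 counts of the scaled library. A count of 0 allows up to 3 counts, which was 0.133 to 0.274 CPM here, for counting error only. The share of counts on mitochondrial genes was 3.19% to 3.37% in WT and 3.28% to 3.47% in SCR. The share on pseudogenes was 9.14% to 9.64% in WT and 10.2% to 10.5% in SCR, without overlap, and its part in the differences below was not tested. The first principal component of the 6 libraries held 30.2% of the variance and placed the SCR libraries at 24 to 33.8 and the WT libraries at -30.2 to -24.7. Of 13 fixed markers of monocytic cells, 12 were expressed highly enough to be tested and FCN1 was not. The list summed to 996 to 1052 CPM in WT and 1091 to 1203 CPM in SCR, without overlap, and its part in the differences below was not tested. Of the 12, 2 were higher in SCR (16.7%, against 1.78% of all genes) and 0 lower: CD14, whose values are given further on, and FCER1G, the signalling chain of Fc receptors, at 281, 270 and 327 CPM in WT and 435, 388 and 380 CPM in SCR (log2 fold change 0.45 ± 0.10, adjusted p 0.0112, edgeR). This count was 1 without WT replicate 1 or SCR replicate 1. FCER1G was the most abundant member of the list. Of the 12 log2 fold changes, 6 were positive and 6 negative, with a median of 0.02 and a lowest value of -0.59. Among the 10 not called, CSF1R, the receptor for macrophage colony-stimulating factor, lay at 18.3, 22.5 and 23.2 CPM in WT and at 22.4, 20.6 and 19.8 CPM in SCR, and AIF1 at 176, 149 and 180 against 174, 161 and 170 CPM. Markers of erythroid and megakaryocytic cells, epithelium, and fibroblasts and endothelium summed to at most 3.82 CPM per library in each list. The B cell list summed to 33.1 to 38.4 CPM in WT and 36.7 to 47.9 CPM in SCR, led by PAX5, and the T and NK cell list to 42.1 to 59.1 CPM and 39.3 to 45.2 CPM, led by CD4, which monocytes also express. No member of these other lists was called by edgeR, 2 had an unadjusted p under 0.05, and DESeq2 called 1.

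SCR and WT differed in 538 genes at an adjusted p of 0.05 (edgeR quasi-likelihood F test, Benjamini-Hochberg), which was 3.23% of the 16678 genes tested. Of these, 297 were higher in SCR (1.78% of all genes tested) and 241 were lower (1.45%). Among the 538, 533 had SCR and WT libraries that did not overlap, a property that 22.6% of all genes tested had. The genes higher in SCR had a median absolute log2 fold change of 0.71 and 75 exceeded 1. The genes lower in SCR had a median of 0.56 and 27 exceeded 1. The median log2 fold change over all genes was 0.01. When 1 library was left out, the count fell to 260 (WT replicate 1), 270 (WT replicate 3), 193 (SCR replicate 1), 347 (SCR replicate 2) and 266 (SCR replicate 3), and 130 genes were called in all 6 such fits. In bulk RNA, a change in the share of cells of one kind and a change in RNA per cell cannot be told apart.

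**Figure D1:**
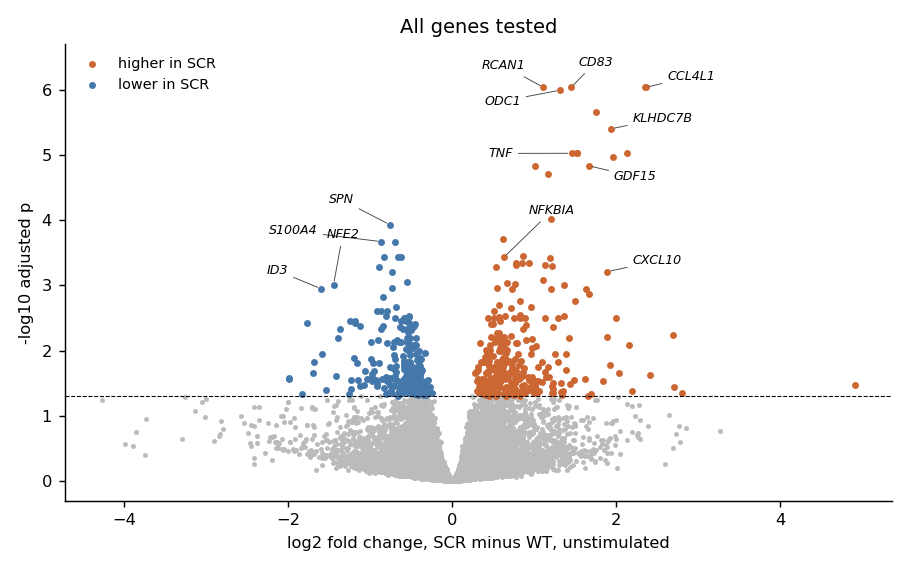
Each point is 1 of the 16678 genes tested, with the log2 fold change of SCR against WT (unstimulated) on the x axis and the -log10 of the adjusted p on the y axis, and the dashed line at an adjusted p of 0.05. The 297 genes higher in SCR (orange) reach smaller adjusted p-values than the 241 lower genes (blue), with CD83, RCAN1, CCL4L1 and ODC1 at the top.

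The genes with the smallest adjusted p in this comparison included CD83, a surface glycoprotein of activated dendritic cells and monocytes (chr6:14117487-14137149, GRCh37). CD83 stood at 12.9, 9.72 and 14.5 CPM in the WT libraries and at 34.7, 35.4 and 32.4 CPM in the SCR libraries, a log2 fold change of 1.45 ± 0.13 (SE) with an adjusted p of 9.21e-07. Every SCR library was above every WT library, and the gap between the groups was wider than the range within either. TNF, the gene of tumour necrosis factor and an NF-kB target in macrophages (chr6:31543342-31546113), stood at 12.7, 18.7 and 16.2 CPM in WT. In SCR it stood at 46.9, 47.9 and 35.1 CPM, a log2 fold change of 1.46 ± 0.15 with an adjusted p of 9.44e-06. Both genes were called in all 6 fits that left out 1 library.

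A list of 31 NF-kB-induced cytokines and regulators held 27 tested genes, of which 14 were higher in SCR and 0 were lower. That was 51.9% of the list against 1.78% of all genes, and the median log2 fold change of the 27 was 1.06. Because this direction was already known from earlier results of these data, the count is a description of which members differed. Without any 1 library the count was 12 to 15. The 14 were CD83, TNF, NFKBIA, RELB, BIRC3, CXCL10, TNFAIP3, ICAM1, NFKB1, NFKB2, NFKBIZ, TNFAIP6, IER3 and CXCL1, all named here because they make up the count.

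Among the subunits and inhibitors of NF-kB itself, NFKBIA, the cytoplasmic inhibitor, lay at 253, 238 and 266 CPM in WT and at 397, 414 and 360 CPM in SCR (log2 fold change 0.63 ± 0.09, adjusted p 0.000371). RELB, the subunit of the non-canonical branch, lay at 60.8, 103 and 77.1 CPM in WT and at 174, 195 and 179 CPM in SCR (1.19 ± 0.17, adjusted p 0.000376). NFKB1, the precursor of p50, lay at 27.2, 28.2 and 23.3 against 46.2, 40.3 and 36.3 CPM (0.65 ± 0.11, adjusted p 0.00289). In all 3 genes the groups did not overlap, and RELB was the most spread among WT libraries. NFKB2, the precursor of p52, had a log2 fold change of 0.75 ± 0.13 and NFKBIZ, a nuclear co-regulator, one of 1.29 ± 0.23. TNFAIP3, the ubiquitin-editing inhibitor A20, rose from 12.8, 11.4 and 10.4 CPM to 22.6, 27.1 and 24.5 CPM (1.10 ± 0.17, adjusted p 0.000827). BIRC3, an inhibitor of apoptosis that also acts downstream of TNF receptors, rose from 4.07, 4.00 and 5.38 CPM to 10.1, 12.4 and 9.39 CPM (1.22 ± 0.18).

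Of the secreted and surface targets, CXCL10, a chemokine induced by both NF-kB and interferon, lay at 3.73, 0.545 and 2.49 CPM in WT and at 7.73, 10.8 and 8.93 CPM in SCR (log2 fold change 1.89 ± 0.28, adjusted p 0.000615), with the lowest value in WT replicate 2. ICAM1, the ligand of beta-2 integrins, lay at 1.19, 3.18 and 2.80 CPM in WT and 5.42, 8.22 and 6.62 CPM in SCR (1.5 ± 0.25). TNFAIP6, a secreted hyaluronan-binding protein, lay at 0.452, 0.363 and 0.356 CPM in WT and 1.16, 2.01 and 1.85 CPM in SCR (2.00 ± 0.36). None of the 3 overlapped between the groups. CXCL1, a neutrophil chemokine, was close to the counting limit, at 0.113, 0.454 and 0.178 CPM against 1.24, 0.731 and 1.00 CPM, and passed the threshold in only 1 of the 6 fits without 1 library (adjusted p 0.0412 with all libraries).

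The other 13 members tested did not pass the threshold. CXCL8, the gene of interleukin 8, lay at 1.41, 0.182 and 0.845 CPM in WT and 2.13, 2.47 and 1.77 CPM in SCR (1.25 ± 0.56, adjusted p 0.249). IL1B, the gene of interleukin 1 beta, lay at 1.64, 1.73 and 2.00 CPM in WT and 1.96, 1.92 and 3.31 CPM in SCR, so that the groups overlapped (0.39 ± 0.31, adjusted p 0.568). TNFAIP2, the most abundant member, lay at 339 to 403 CPM in WT and 386 to 448 CPM in SCR (0.18 ± 0.16). IL1A had no counts in WT and in 2 of the SCR libraries.

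**Figure D2:**
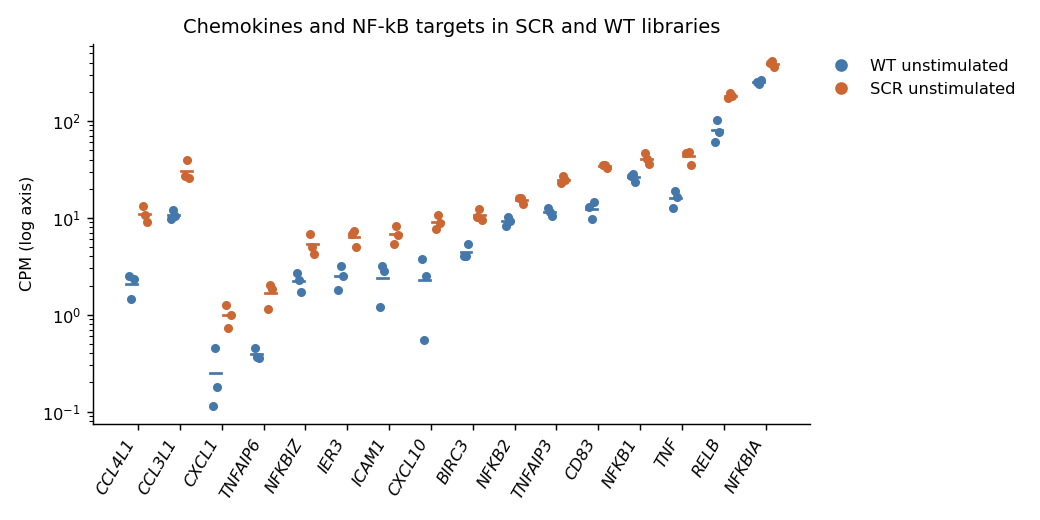
Each point is 1 unstimulated library (WT blue, SCR orange, 3 each), the short line is the group mean, and the y axis is CPM on a log scale, for the 14 members of the NF-kB list higher in SCR and for CCL4L1 and CCL3L1. In each of these genes the SCR points lie above the WT points, over levels from about 0.113 CPM (CXCL1 in a WT library) to 414 CPM (NFKBIA in an SCR library).

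The promoter windows of these NF-kB targets are shown because 7 of the 12 with a RefSeq window hold a kB sequence within it. RefSeq windows (GRCh38.p14) run from 250 bases before to 50 after an annotated start. The letters GGG, any 2 bases and then TTTCC, the core of a kB site, were searched on both strands. They occurred in 1.91% of all 35116 windows and in 2.11% of the 15610 windows of tested genes. Among genes higher in SCR, 18 of 290 windows (6.21%) held them, and among genes lower in SCR 9 of 277 (3.25%). Among the higher NF-kB targets it was 8 of 17 windows. These 17 are part of the 290, and their 8 matches are part of the 18, so the 2 shares are not independent. The members of the list were picked as known NF-kB targets, so the match describes what they share. Below, 30 bases around each match are given with the matching letters in capitals, read in the direction of the gene:
NFKBIA, chr14:35404811-35404840, minus strand: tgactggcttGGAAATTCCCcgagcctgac
CXCL1, chr4:73869304-73869333, plus strand: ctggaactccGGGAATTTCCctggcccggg
NFKB1, chr4:102501300-102501329, plus strand: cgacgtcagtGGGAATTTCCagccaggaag
NFKBIZ, chr3:101827757-101827786, plus strand: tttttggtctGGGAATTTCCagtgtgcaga
NFKB2, chr10:102395674-102395703, plus strand: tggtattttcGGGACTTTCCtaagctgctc
BIRC3, chr11:102317275-102317304, plus strand: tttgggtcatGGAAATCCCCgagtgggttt
CXCL1, NFKB1 and NFKBIZ carried the same 10 letters, and the NFKBIA match is these letters read on the other strand. NFKB2 had a further match in another of its windows.

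TNFAIP3 was the member with 2 matches in 1 window. The whole window of 300 bases, chr6:137867009-137867308 on the plus strand of GRCh38.p14, is given with both in capitals:
TNFAIP3: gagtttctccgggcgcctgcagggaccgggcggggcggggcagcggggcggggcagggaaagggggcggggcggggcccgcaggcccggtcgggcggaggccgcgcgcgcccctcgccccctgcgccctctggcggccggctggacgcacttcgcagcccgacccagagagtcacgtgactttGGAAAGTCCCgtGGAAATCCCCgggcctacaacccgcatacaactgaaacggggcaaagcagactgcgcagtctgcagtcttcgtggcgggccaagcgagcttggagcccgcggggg
The windows of CD83, CXCL10, ICAM1, TNF and TNFAIP6 held no match, which says only that these letters are not in these windows. The same limit holds for the AP-1 and interferon letters given next, since a site that differs in a single letter is missed. The CXCL10 window holds the interferon letters in all but the last position. Those letters are also rare in the windows of tested genes, so finding none in called genes says little. The letters TGANTCA, an AP-1 site, occurred in 7.71% of all windows, in 5.17% of the windows of tested genes and in 6.21% of the windows of genes higher in SCR. The letters GAAA, any 2 bases and then GAAACT, an interferon-stimulated response element, occurred in 0.273% of all windows, in 0.34% of those of tested genes and in 0 of the windows of called genes.

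CC chemokines attract monocytes and lymphocytes. Of 8 tested, 3 were higher in SCR (37.5%, against 1.78% of all genes) and 0 lower. The 3 include CCL4L1 and CCL4L2, which are 1 measurement. CCL4L1 (chr17:34538310-34540280, GRCh37) lay at 2.49, 1.45 and 2.36 CPM in WT and at 13.3, 10.8 and 9.16 CPM in SCR, a 5.13-fold difference (log2 fold change 2.36 ± 0.20, adjusted p 9.21e-07). CCL4L2 had counts within 1 of those of CCL4L1 in every library, so these near-identical copies of CCL4 are 1 measurement and cannot be told apart. CCL3L1, a copy of CCL3, lay at 9.78, 12 and 10.4 CPM in WT and 27.2, 39.4 and 25.9 CPM in SCR (1.53 ± 0.16), and its counts were within 2 of those of an identifier without a symbol, ENSG00000256515. CCL2 lay at 17.6, 11.1 and 12.2 CPM in WT and 23.0, 21.6 and 23.2 CPM in SCR, without overlap, and narrowly missed the threshold (0.72 ± 0.20, adjusted p 0.0555). Of the 297 higher genes, 6 had no symbol in the annotation and are not named here.

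The immediate-early transcription factors of the AP-1 and EGR families respond within minutes to growth factors, stress and Toll-like receptor ligands. Of 19 tested, 7 were higher in SCR (36.8%, against 1.78% of all genes) and 0 lower, and the median log2 fold change was 0.51. ATF3, EGR1, JUN, EGR4, JUNB and EGR2 were among the higher genes, and the count fell to 4 without WT replicate 1 or without SCR replicate 1. EGR1 lay at 8.14, 8.17 and 7.03 CPM in WT and 21.0, 16.5 and 15.8 CPM in SCR (1.20 ± 0.19, adjusted p 0.00113). ATF3, a stress-induced factor that represses cytokine genes, lay at 7.7, 6.7 and 7.7 against 18, 14 and 16 CPM (1.13 ± 0.16, adjusted p 0.000493). The SCR libraries of both genes lay wholly above those of WT. FOS was not called, at 11, 7.54 and 7.78 CPM in WT and 9.38, 7.22 and 10.5 CPM in SCR (0.04 ± 0.36, adjusted p 0.97).

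Of 12 tested genes for MAP kinase phosphatases and feedback, DUSP4 (0.86 ± 0.12) and DUSP2 (0.99 ± 0.25, adjusted p 0.0297) were higher. That was 16.7%, against 1.78% of all genes, and DUSP2 was called in 2 of the 6 fits without 1 library. RCAN1, an inhibitor of the phosphatase calcineurin, lay at 48.5, 50.5 and 52.3 CPM in WT and 120, 107 and 99.3 CPM in SCR (1.11 ± 0.10, adjusted p 9.21e-07). It was the only one of 14 genes of the calcineurin-NFAT axis past the threshold (7.14%, against 3.23% of all genes). Its groups were separated by more than the range within SCR. Among 16 genes that govern decay of cytokine mRNA, 3 were higher (18.8%, against 1.78% of all genes): ZFP36L1 (0.90 ± 0.17), ZC3H12A (0.58 ± 0.13) and ZC3H12C (0.86 ± 0.22). Of these 3, only ZFP36L1 was called in all 6 fits without 1 library, ZC3H12A was called in 3 of them and ZC3H12C in 0, and the count was 1 without WT replicate 1 or SCR replicate 1.

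Of 40 type I interferon-stimulated genes tested, only ISG20, an RNA exonuclease, was higher (53.5, 58.2 and 57.3 CPM in WT, 75.8, 74.4 and 76.3 CPM in SCR, log2 fold change 0.42 ± 0.09, adjusted p 0.0151), which was 2.5% of the list against 1.78% of all genes, and 0 were lower. It was called in 3 of the 6 fits without 1 library. The median log2 fold change of the 40 was -0.06, and 8 had an unadjusted p under 0.05. These genes were expressed already in WT: IFIT1, an RNA-binding antiviral protein, lay at 225, 235 and 207 CPM in WT and 193, 198 and 204 CPM in SCR (-0.16 ± 0.10, adjusted p 0.399). ISG15, a ubiquitin-like modifier, lay at 185, 306 and 268 CPM in WT and 318, 310 and 354 CPM in SCR, without overlap (0.37 ± 0.14, adjusted p 0.163). EIF2AK2, the kinase activated by double-stranded RNA, lay at 263, 201 and 219 CPM in WT and 198, 184 and 205 CPM in SCR, with overlap.

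Of 23 nucleic acid sensors and adaptors, 1 was called (4.35%, near the 3.23% of all genes). This was ADAR, which edits double-stranded RNA, at 723, 692 and 717 CPM in WT and 516, 591 and 582 CPM in SCR (-0.34 ± 0.07, adjusted p 0.011). Without 1 of the libraries its adjusted p rose to 0.0725 in the least favourable fit. Of 24 genes of the RNA interference and microRNA machinery, 0 passed the threshold under edgeR, 5 had an unadjusted p under 0.05, and DESeq2 called 1. AGO2, the slicing Argonaute, lay at 14.2, 22.1 and 16.8 CPM in WT and 12, 18 and 14.5 CPM in SCR (-0.25 ± 0.20, adjusted p 0.56). These groups overlapped and the interval is wide, so a change of this size was not detectable here. TRAFD1, the target of the study's other siRNA, lay at 22.2, 21.2 and 18.3 CPM in WT and 26.8, 20.1 and 24.3 CPM in SCR, with overlap (0.21 ± 0.22, adjusted p 0.675).

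Several genes outside the immune lists differed as clearly. ODC1, ornithine decarboxylase and the first enzyme of polyamine synthesis (chr2:10580094-10588453, GRCh37), lay at 26.5, 24.6 and 25.7 CPM in WT and 66.7, 62.4 and 62.2 CPM in SCR (1.31 ± 0.12, adjusted p 1.02e-06). Both groups were tight and did not overlap. In the polyamine list of 18 genes, 3 were called (16.7%, against 3.23% of all genes). Besides ODC1, SRM, spermidine synthase, was higher (0.54 ± 0.14) and AMD1, which makes the aminopropyl donor, was lower (-0.40 ± 0.09). SRM and AMD1 were called in 2 and 1 of the 6 fits without 1 library. IL4I1, a secreted amino acid oxidase of antigen-presenting cells, lay at 5.99, 12.1 and 11.7 CPM in WT and 34.4, 46.8 and 34.3 CPM in SCR (1.96 ± 0.21, adjusted p 1.08e-05). PDGFA, a growth factor chain, lay at 12.1, 11.9 and 12 against 21.4, 30.2 and 29.9 CPM (1.17 ± 0.13). TIMP3, an inhibitor of matrix metalloproteinases, was among the more abundant of the higher genes, at 307, 296 and 382 CPM in WT and 675, 703 and 611 CPM in SCR (1.01 ± 0.11). KLHDC7B, a kelch-domain gene, lay at 5.65, 9.63 and 7.78 against 26.5, 29.5 and 31.6 CPM (1.94 ± 0.19). The transcript KLHDC7B-DT beside it was higher too (2.80 ± 0.76, adjusted p 0.0444) but lay at 0.0445 to 0.170 CPM in WT, at or near the counting limit.

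The stress lists held a few higher genes each. The integrated stress response slows translation and induces amino acid genes through ATF4, and 4 of 40 tested genes were higher (10%, against 1.78% of all genes), with a list median of 0.05. Without WT replicate 1 the count was 2. GDF15, a stress-induced cytokine, lay at 12.9, 16.3 and 22.8 CPM in WT and 47.8, 65.7 and 52.6 CPM in SCR (1.66 ± 0.18, adjusted p 1.47e-05). STC2 (0.86 ± 0.16), TRIB3 (0.67 ± 0.14) and ASNS (0.37 ± 0.09) were the others, and ASNS was called in 1 of the 6 fits without 1 library. Of 22 genes of the NRF2 response and iron storage, FTH1, HMOX1, FTL and OSGIN1 were higher (18.2%, against 1.78% of all genes). The count was 1 without WT replicate 1 or SCR replicate 2 and 2 without SCR replicate 1, and FTL and OSGIN1 were each called in 2 of the 6 fits without 1 library. FTH1, the ferritin heavy chain, was higher at high abundance, at 2103 to 2701 CPM in WT and 3325 to 3742 CPM in SCR (0.53 ± 0.08, adjusted p 0.000517), and reads of its processed pseudogenes may be shared with it. HMOX1, haem oxygenase, lay at 15.8, 21.6 and 21.0 against 27.8, 45.4 and 29.3 CPM and was called in 4 of the 6 fits without 1 library. SQSTM1, the autophagy receptor p62, was the only one of 21 autophagy genes called (4.76%, against 3.23% of all genes). It lay at 187, 179 and 220 CPM in WT and 309, 302 and 290 CPM in SCR (0.62 ± 0.08, adjusted p 0.000193). Of 22 p53 targets, 2 were called (9.09%, against 3.23% of all genes). PLK3 was higher (0.65 ± 0.18, called in 2 of the 6 fits without 1 library) and TP53INP1 was lower, from 11.4, 13.9 and 9.87 CPM to 5.38, 5.76 and 4.85 CPM (-1.13 ± 0.21, adjusted p 0.00425).

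Of 46 ribosome biogenesis genes, 44 had a positive log2 fold change, and the median was 0.30. Of these 46, 9 were higher (19.6%, against 1.78% of all genes) and 0 lower. This count fell to 2 when WT replicate 1, SCR replicate 2 or SCR replicate 3 was left out and to 3 for WT replicate 3 or SCR replicate 1. NOP16, a nucleolar protein, was called in all of them and lay at 46.6, 48.9 and 42.0 CPM in WT and 66.5, 72.2 and 64.8 CPM in SCR (0.57 ± 0.09, adjusted p 0.002). Of 78 cytosolic ribosomal protein genes, 8 were higher (10.3%, against 1.78% of all genes) and 0 lower, with a median of 0.17. RPL3 was the one with the smallest adjusted p (601, 656 and 616 against 894, 821 and 826 CPM, 0.44 ± 0.08). The list's count was 3 without SCR replicate 1 and 5 without WT replicate 1. Ribosomal protein pseudogenes moved with them: 24 of 460 tested were higher, against 297 of all 16678 genes tested, and 0 lower. Reads may be split between these pseudogenes and their parent genes. Of 16 long non-coding RNAs that host snoRNAs, GAS5 (0.50 ± 0.09), SNHG8 (0.47 ± 0.09), SNHG15 (0.82 ± 0.20) and SNHG1 (0.59 ± 0.15) were higher. That was 4 of 16, or 25%, against 1.78% of all genes. GAS5 and SNHG8 were called in all 6 fits without 1 library, SNHG15 in 2 and SNHG1 in 1, and the count was 2 without WT replicate 3 or any 1 of the SCR replicates.

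Of 42 replication genes, RRM2, RFC4, CDC45 and MCM2 were higher (9.52%, against 1.78% of all genes). Of the 42, 37 had a positive log2 fold change, and the median was 0.21. RRM2, a subunit of ribonucleotide reductase, lay at 25.2, 22.2 and 25.8 CPM in WT and 34.5, 45.8 and 37.0 CPM in SCR (0.67 ± 0.13, adjusted p 0.00729). The count of higher genes was 1 to 4 without 1 library. Of 47 mitotic genes, HJURP was higher while TACC3 and TOP2A were lower (6.38% called, against 3.23% of all genes), with a median of 0.01. HJURP was called in 0 and TACC3 in 2 of the 6 fits without 1 library. TOP2A, topoisomerase II alpha, lay at 777, 694 and 904 CPM in WT and 547, 614 and 629 CPM in SCR (-0.41 ± 0.11, adjusted p 0.0369), and was called in 1 of the 6 fits without 1 library. None of the 76 nuclear-encoded respiratory chain genes, 34 genes of glycolysis and hypoxia, 13 mitochondrial mRNAs, 21 heat shock chaperones, 11 metallothioneins and zinc transporters or 20 genes of MHC class I passed the threshold in edgeR with all 6 libraries. In the same order, 7, 4, 1, 3, 1 and 2 of them had an unadjusted p under 0.05, and DESeq2 called 1, 2, 0, 2, 1 and 0.

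**Figure D3:**
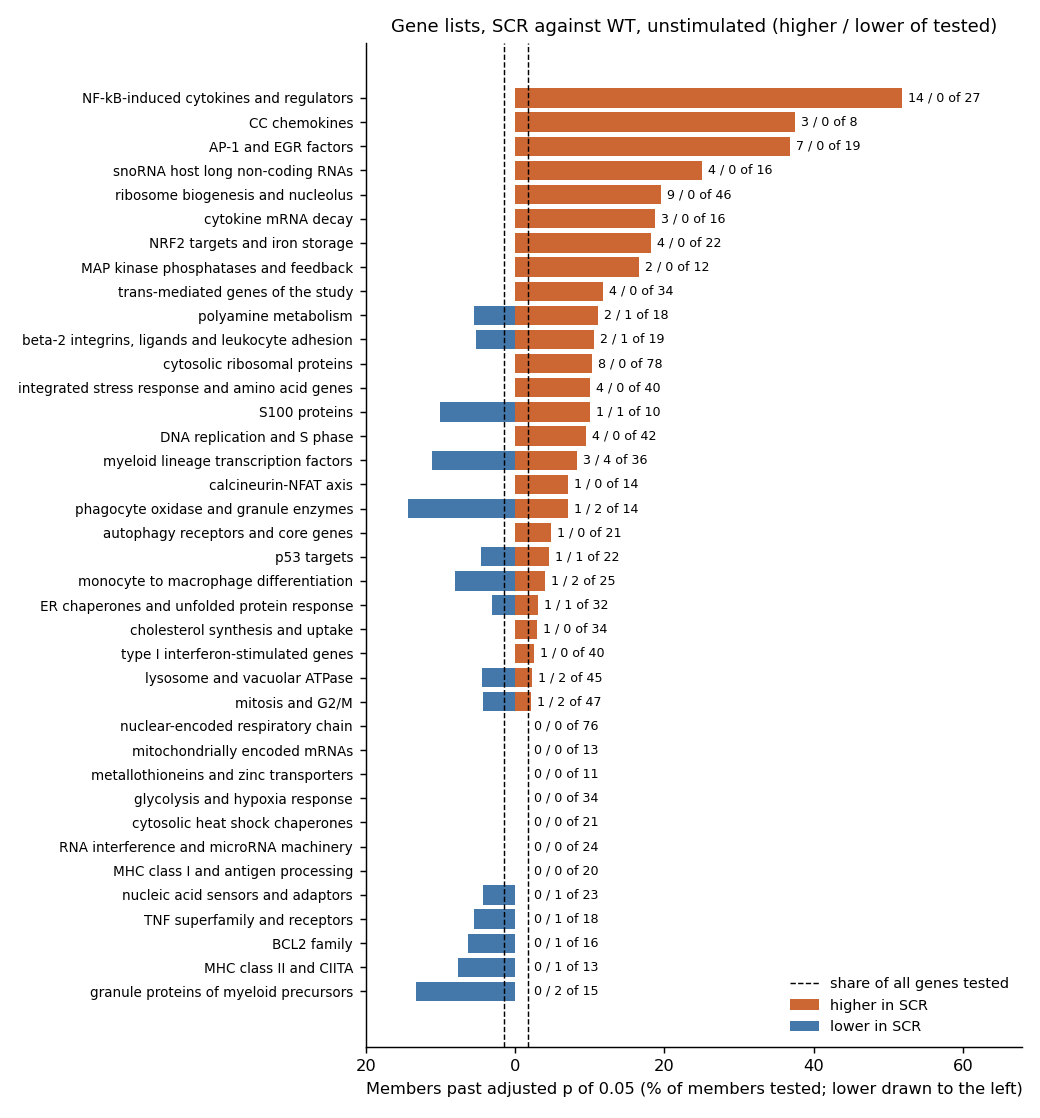
Bars give, for each of 38 gene lists, the percentage of tested members called higher in SCR (orange, right) and lower in SCR (blue, drawn to the left), with the counts printed as higher / lower of tested and dashed lines at the shares over all genes (1.78% higher, 1.45% lower). The NF-kB list stands furthest to the right with 14 of 27, while the interferon list has 1 of 40.

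Among the genes lower in SCR, SPN, the gene of the mucin CD43 (chr16:29674300-29682197, GRCh37), had the smallest adjusted p. It lay at 545, 558 and 554 CPM in WT and 292, 342 and 348 CPM in SCR, a log2 fold change of -0.76 ± 0.10 (adjusted p 0.000118). S100A4, a calcium-binding protein linked to cell motility (chr1:153516089-153522612), lay at 935, 1163 and 1104 CPM in WT and 559, 646 and 554 CPM in SCR (-0.86 ± 0.12, adjusted p 0.000213). Of the 10 S100 genes tested, 2 were called (20%, against 3.23% of all genes). S100A4 was the only one called lower, while S100P was called higher (149, 151 and 172 against 252, 210 and 212 CPM). A negative log2 fold change was seen in 5 of the 10, the lowest at -1.26. Neither SPN nor S100A4 overlapped between the groups, and both were called in all 6 fits without 1 library.

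CCR2 and IL6R, both receptors, were lower in SCR. CCR2, the receptor for CCL2 by which monocytes leave the bone marrow, lay at 130, 120 and 121 CPM in WT and 71.9, 78.8 and 84.6 CPM in SCR (-0.66 ± 0.09, adjusted p 0.000371). IL6R, the interleukin 6 receptor alpha chain, lay at 586, 565 and 568 against 362, 426 and 386 CPM (-0.55 ± 0.08, adjusted p 0.000893). In both, the WT libraries were tight and lay above every SCR library. ARHGAP9 (227, 195 and 227 against 147, 123 and 129 CPM, -0.70 ± 0.09) and ARHGEF17 (92.6, 106 and 97.5 against 54.0, 54.0 and 51.5 CPM, -0.89 ± 0.13) were lower too. In the adhesion list of 19, 3 were called (15.8%, against 3.23% of all genes). SPN was lower while CD44, the hyaluronan receptor, was higher (40.8, 42.3 and 45.9 CPM in WT, 76.1, 72.6 and 71.9 CPM in SCR, 0.78 ± 0.11, adjusted p 0.000455), as was ICAM1.

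Lineage factors differed in both directions. Of 36 myeloid transcription factors tested, 7 were called (19.4%, against 3.23% of all genes). KLF6 and ETS2 were among the higher genes, and ID3, GFI1, ID2 and ID1 were lower. ETS2 was called in 0 of the 6 fits without 1 library. ID3, an inhibitor of basic helix-loop-helix factors, lay at 10.0, 7.45 and 7.34 CPM in WT and 2.84, 3.11 and 2.23 CPM in SCR (-1.60 ± 0.25, adjusted p 0.00112). Its relatives ID1 (-1.06 ± 0.25, adjusted p 0.0207) and ID2 (-0.54 ± 0.12, adjusted p 0.015) were called in 2 and 3 of the 6 fits without 1 library. NFE2, a factor of erythroid and megakaryocytic genes that myeloid cells also express, lay at 14.3, 13.3 and 13.8 CPM in WT and 5.47, 3.65 and 6.01 CPM in SCR (-1.44 ± 0.23, adjusted p 0.000971). GFI1, a repressor needed for granulocyte precursors, lay at 439, 406 and 400 against 332, 296 and 281 CPM (-0.45 ± 0.08).

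Of 15 granule proteins of myeloid precursors, RNASE2 and MS4A3 were lower (13.3%, against 1.45% of all genes) and 0 were higher. RNASE2, an eosinophil-type ribonuclease also made by monocytic precursors, lay at 571, 473 and 470 CPM in WT and 331, 286 and 298 CPM in SCR (-0.73 ± 0.11, adjusted p 0.000615). MS4A3, a marker of granulocyte-monocyte progenitors, lay at 44.1, 38.0 and 23.8 against 18.3, 16.6 and 18.3 CPM (-0.99 ± 0.20, adjusted p 0.00745). Among 25 genes of monocyte to macrophage differentiation, 3 were called (12%, against 3.23% of all genes). CD14 was higher and CHI3L1 and CD36 were lower, called in 6, 4 and 1 of the 6 fits without 1 library. CD14, the LPS co-receptor, lay at 10.9, 16.9 and 20.7 CPM in WT and 43.1, 30.7 and 32.7 CPM in SCR (1.14 ± 0.20, adjusted p 0.00311). CHI3L1, a secreted chitinase-like protein, remained abundant in both groups, at 1439 to 1510 CPM in WT and 1070 to 1184 CPM in SCR (-0.37 ± 0.08). Of 13 MHC class II genes tested, only HLA-DQB1 passed the threshold (-0.81 ± 0.19), and in 3 of the 6 fits without 1 library. That was 7.69% of the list, against 3.23% of all genes. Of 14 phagocyte oxidase and granule enzymes, 3 were called (21.4%, against 3.23% of all genes). NCF1 was higher (0.96 ± 0.20), a gene with near-identical pseudogenes that can share its reads, and CAT and NCF4 were lower. TNFSF14 was the only one of 18 listed TNF superfamily genes and receptors called (5.56%, against 3.23% of all genes). It was lower (-1.23 ± 0.32, adjusted p 0.0387) and was called in 1 of the 6 fits without 1 library. TNF itself, higher in SCR as given above, was not in this list.

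**Figure D4:**
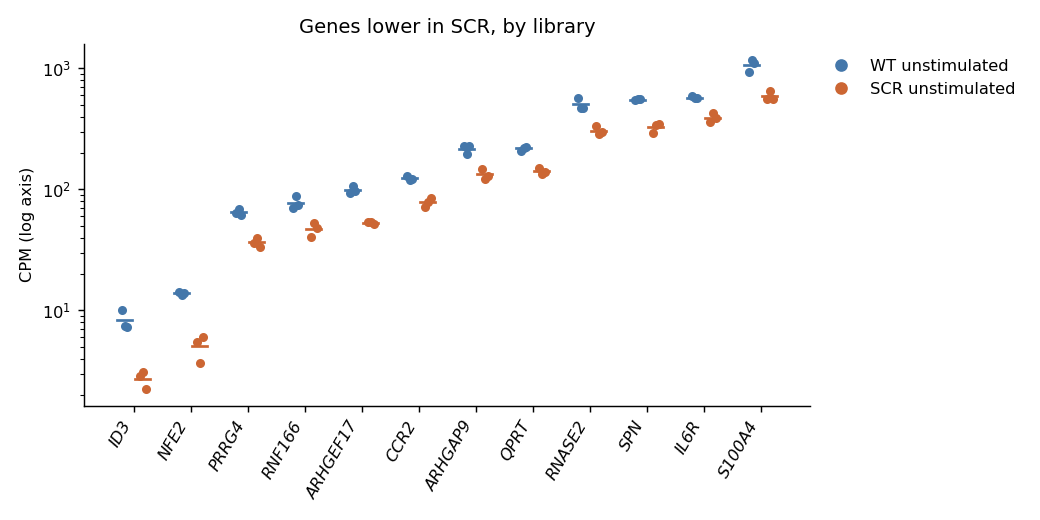
Each point is 1 unstimulated library (WT blue, SCR orange, 3 each), the short line is the group mean, and the y axis is CPM on a log scale, for the 12 genes lower in SCR with the smallest adjusted p. The SCR points lie below the WT points in each gene, from ID3 (2.23 to 10.0 CPM) to S100A4 (554 to 1163 CPM).

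Some of the genes with the largest fitted fold changes had few counts. IL32, a pro-inflammatory cytokine, lay at 0.396, 0.0908 and 0.178 CPM in WT and 1.29, 1.74 and 1.69 CPM in SCR, a 6.46-fold difference (2.69 ± 0.52, adjusted p 0.0058), on 1 to 29 counts per library. CCR7, the receptor that guides dendritic cells to lymph nodes, had 0 counts in the WT libraries and at most 5 in an SCR library. At this depth no fold can be given for it, and it was called in 0 of the 6 fits without 1 library. HP and its near-identical neighbour HPR, both haptoglobin genes, were lower with the same log2 fold change of -1.99 (adjusted p 0.0272 and 0.026). KCP was the lower gene of large change with the smallest adjusted p, at 9.61, 9.90 and 9.83 CPM in WT and 1.42, 4.57 and 3.0 CPM in SCR (-1.77 ± 0.32, adjusted p 0.00381).

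With LPS, the same siRNA difference was measured in 6 other libraries. SCR and WT then differed in 19 genes (0.114% of those tested), 4 higher and 15 lower in SCR. There the replicate numbers paired the libraries, and the fit with a replicate block called 135 genes across all 18 libraries and 2301 on these 6 alone. Without the block, leaving out SCR replicate 5 gave 0, with 1529 genes at an unadjusted p under 0.05. Of the genes called in both states 10 had the same direction, which was 10 of the 19 and 10 of the 538, and 0 had the opposite direction. GDF15 and PDGFA were the 2 higher in both: GDF15 lay at 8.46, 7.10 and 8.62 CPM in WT with LPS and 17.7, 22.9 and 19.9 CPM in SCR with LPS (1.33 ± 0.20, adjusted p 0.00724). ARHGAP9 (-0.49 ± 0.10) and ARHGEF17 (-0.69 ± 0.13) were among the 8 lower in both. Across the 16678 genes Pearson's r between the log2 fold changes of the 2 states was 0.18, a description only, since genes are not independent replicates.

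None of the 27 tested NF-kB genes passed the threshold between SCR and WT with LPS under edgeR, and their median log2 fold change was -0.02. Of these, 4 had an unadjusted p under 0.05, and DESeq2 and the fit with a replicate block each called 2. CD83 lay at 103, 109 and 99.8 CPM in WT with LPS and 88.4, 99.5 and 104 CPM in SCR with LPS. TNF lay at 132, 153 and 137 against 129, 145 and 157 CPM. Both genes overlapped between the groups there, at levels above all unstimulated libraries. The difference of SCR against WT between the states was tested directly: 39 genes (0.234% of those tested) passed, 36 with a smaller value with LPS, and leaving out WT replicate 1 gave 17 and WT replicate 2 gave 91. For CD83 the difference between the states was -1.55 ± 0.17 (adjusted p 8.09e-05), for TNF -1.42 ± 0.21 (adjusted p 0.0021) and for CCL4L1 -2.29 ± 0.25 (adjusted p 8.09e-05). Of the NF-kB list, 9 members passed, all with a smaller value with LPS. For SPN (0.38 ± 0.14, adjusted p 0.404) and GDF15 (-0.33 ± 0.27, adjusted p 0.7) the test of the difference did not pass.

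The cells with the siRNA against TRAFD1 had the same transfection as SCR. TRAFD1 itself lay at 11.6, 5.37 and 9.02 CPM in unstimulated KD, below the SCR values given above (log2 fold change -1.45 ± 0.23, adjusted p 0.0277). Unstimulated KD and SCR differed in 11 genes (0.066% of those tested). This count was 1 without SCR replicate 1 or SCR replicate 3 and 52 without KD replicate 1. The levels of the genes above in KD are given beside those of SCR, with which the comparison with WT shares its SCR libraries. TNF lay at 45.2, 49.6 and 34.9 CPM in KD (log2 fold change against SCR -0.00 ± 0.15). CCL4L1 lay at 13.2, 7.77 and 11.5 CPM (-0.04 ± 0.17), and ODC1 at 71.0, 61.2 and 63.2 CPM (0.03 ± 0.11). The KD libraries of these 3 genes overlapped those of SCR and lay above every WT library. Over the 27 tested NF-kB genes, the median log2 fold change of KD against SCR was -0.28, and 0 were called. CXCL10 lay between the SCR and WT libraries, at 5.98, 4.87 and 3.97 CPM (-0.86 ± 0.27, adjusted p 0.172). RELB (-0.43 ± 0.17, adjusted p 0.28) and BIRC3 (-0.42 ± 0.17, adjusted p 0.303) also had negative values. S100A4 lay at 438, 566 and 600 CPM (-0.13 ± 0.11) and SPN at 280, 336 and 318 CPM (-0.07 ± 0.10), below every WT library. RCAN1 lay between the SCR and WT libraries, at 79.0, 86.3 and 80.7 CPM, and its difference from SCR missed the threshold (-0.41 ± 0.10, adjusted p 0.0802). NFKBIA was also between them, at 299.9, 328 and 249 CPM, with KD replicate 3 within the WT range (-0.42 ± 0.09, adjusted p 0.0655).

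**Figure D5:**
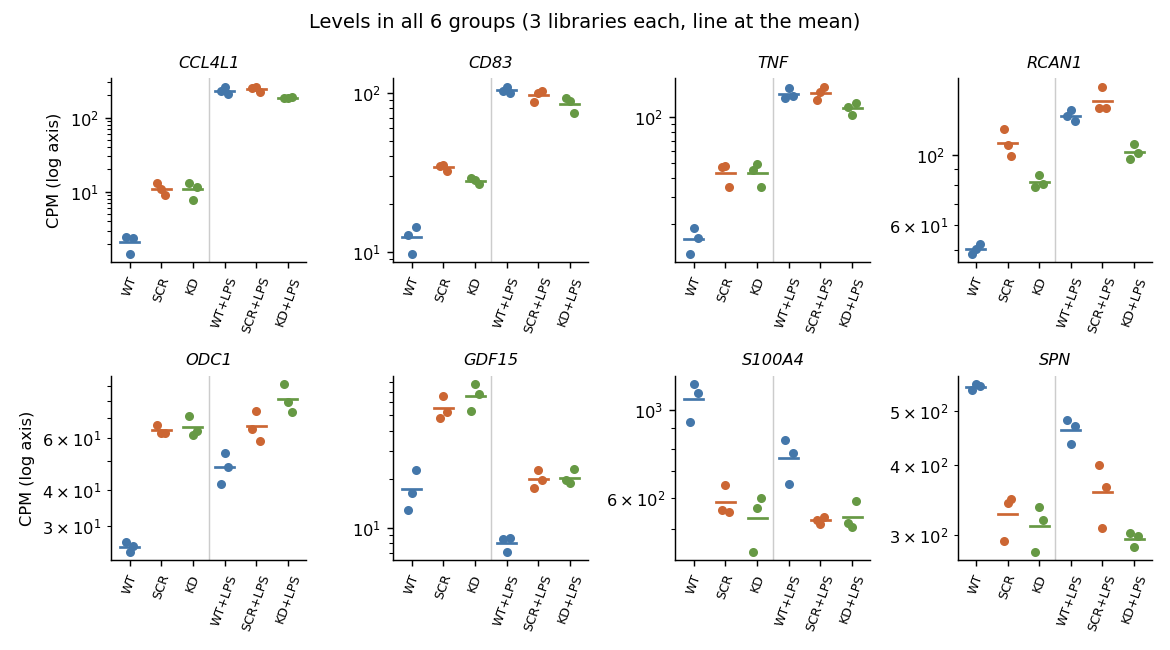
Each panel gives 1 gene and each point 1 library, with CPM on a log y axis, WT in blue, SCR in orange and KD in green, unstimulated left and with LPS right of the grey line, and a line at each group's mean. In unstimulated cells SCR and KD lie on the same side of WT in every panel, for example ODC1 at 62.2 to 66.7 CPM in SCR, 61.2 to 71.0 CPM in KD and 24.6 to 26.5 CPM in WT.

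The study's own list of genes tied to TRAFD1 in other blood samples had 34 tested members. Of these, CXCL10, GADD45B, ICAM1 and GBP1 were higher in SCR than in WT (11.8%, against 1.78% of all genes), and 0 were lower. The median log2 fold change was 0.11. GADD45B, a stress-induced signalling protein, lay at 40.1, 37.9 and 35.2 CPM in WT and 68, 61.7 and 58 CPM in SCR (0.73 ± 0.12, adjusted p 0.00112). GBP1, an interferon-induced GTPase, lay at 1.24, 1.45 and 1.87 against 3.11, 2.74 and 3.39 CPM (1.00 ± 0.27, adjusted p 0.0437) and was called in 0 of the 6 fits without 1 library. CXCL10 and ICAM1 are also in the NF-kB list, and the 2 counts are not independent.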

How the data were processed

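RNA was measured by QuantSeq, which sequences polyadenylated RNA from its 3′ end. The authors removed adaptors, low-quality and poly-A reads, aligned with HISAT to GRCh37, counted with featureCounts on an Ensembl 75 annotation limited to the last 500 bases of each gene, and deposited raw counts. Here genes were filtered by filterByExpr, scaled by TMM and fitted with 6 group means over all 18 libraries with the edgeR 4.0.16 quasi-likelihood F test in R 4.3.3, with Benjamini-Hochberg adjustment over the genes tested. CPM uses the TMM-scaled totals, and SE is the log2 fold change over the square root of F. The script was tested on simulated data. Symbols and coordinates are from GENCODE v44lift37 and matched 55665 of 63677 identifiers. Named genes were the 12 per direction with the smallest adjusted p and no overlap, the 6 with the largest change, up to 5 called members per list and direction (or the 2 most abundant where none was called), the 6 smallest interaction p-values, and TRAFD1, TNF, IL1B, CXCL8, IFIT1, ISG15, EIF2AK2, AGO2 and CD14. Other names were added after their values were seen. Genes, lists and tests were chosen with earlier results of these data known, and the kB letters after the NF-kB genes were seen to differ. With 3 samples against 3, an exact permutation test of a gene cannot go below 0.1. With LPS, the deviations of same-numbered SCR and WT libraries correlated (r of 0.26, 0.16 and 0.25), and the labels name no shared batch. Promoter windows are from RefSeq, which held one for 198 of the higher and 174 of the lower genes. Results for some genes and 1 gene list are not reported here.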

Additional observations from a re-analysis of the deposited data

Results flagged for a closer look

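The difference between SCR and WT was tested for a change between the unstimulated and the LPS-treated state, and 39 genes passed. Among the genes named above, CD83 (-1.55), CCL4L2 (-2.28), CCL4L1 (-2.29), RELB (-1.67), TNF (-1.42), CCL3L1 (-1.42), CXCL10 (-2.07) and NFKBIA (-0.63) had a smaller log2 fold change of SCR against WT with LPS than without. The same held for RCAN1 (-0.96), CD44 (-0.91), IL4I1 (-1.65), KLHDC7B (-1.44), SQSTM1 (-0.60), ODC1 (-0.85), ZC3H12A (-0.92) and FTH1 (-0.56). IL6R, lower in SCR without LPS, had a change of 0.66. GPD2, mitochondrial glycerol phosphate dehydrogenase, had one of -0.85: it lay at 183, 167 and 193 CPM in WT and 233, 207 and 205 CPM in SCR without LPS (log2 fold change 0.25 ± 0.08, adjusted p 0.109), and at 376, 382 and 382 CPM in WT and 251, 242 and 260 CPM in SCR with LPS (-0.60 ± 0.08, adjusted p 0.00724). It was the named gene whose sign differed between the states with the call on the LPS side. Why the differences change between the states was not tested.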

How the results depend on the processing

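For SCR against WT, unstimulated, the count of 538 genes was 537 with RLE size factors, 768 without a filter, 617 with GC correction and 409 on the 6 libraries alone. It was 932 with DESeq2, 696 with DESeq2 on the 6 libraries (334 higher and 362 lower, against 297 and 241), 966 with a replicate block on the 6 libraries and 934 with a replicate block in all 18, the last added after seeing the data. Unstimulated numbers did not pair the libraries (r of 0.06, 0.06 and -0.05, and 1 of 3 numbers matched best with its own). Leaving out 1 library gave 193 to 510. For SCR against WT with LPS, 19 became 593 without a filter (396 higher), 47 on its groups alone, 2301 and 135 with a replicate block (its groups, all 18), 196 with DESeq2 and 0 to 14 without 1 library. For the difference between states, 39 became 241 without a filter, 228 with a replicate block on its groups, 85 with DESeq2 and 17 to 91 without 1 library. For KD against SCR, 11 (4 higher) became 320 without a filter, 43 with GC correction (25 higher), 32 and 183 with a replicate block, 242 with DESeq2, 1 to 52 without 1 library, and 0 on its groups alone with 1305 genes at an unadjusted p under 0.05. The causes were not tested. The 112 named genes called kept their direction in every fit that tested them. Some uncalled ones near 0 changed sign without 1 library: SLC39A14 (-0.068 to 0.29), ATP5MG (-0.12 to 0.016), B2M (-0.099 to 0.26), ENO1 (-0.019 to 0.095) and GP9 (-1.11 to 1.14). GP9 was also at -0.044 with GC correction, -0.064 with the block in all 18 libraries and -0.018 with DESeq2 on 6. Genes at a few counts, such as CCR7 and CXCL1, are limited by depth.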
